A study of Mus musculus with 69 samples.

Results

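The early arm of the IL-4 response was compared between bone marrow-derived macrophages (BMDMs) of SPRET/EiJ (SPRET) and C57BL/6J (C57) mice. The quantity of interest was the difference in response at 1 hour, that is, the change from basal conditions to 1 hour of IL-4 in SPRET minus the same change in C57. The libraries were taken by strain and time from the sample labels, 2 for each strain under basal conditions and 2 for each strain after 1 hour, which gave 8 of the 69 samples of the series. C57 is the common laboratory strain, and SPRET is an inbred strain derived from wild Mus spretus. Per the study, all mice were healthy females 8 to 12 weeks old. Bone marrow was differentiated for 7 days with M-CSF, the growth factor that drives macrophage formation, and the treated cells received 20 ng/mL of mouse IL-4. No engineered allele is listed for either strain. The same time course also had libraries after 6 and 24 hours, for 16 libraries in all, and these entered the same model. The sources do not say which libraries came from the same animal, so p-values measure the spread between libraries, which may be partly technical.

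IL-4 binds a receptor made of Il4ra with a second chain, and the JAK kinases on that receptor phosphorylate STAT6. STAT6 then enters the nucleus and binds DNA at sites of the form TTC, a short spacer and GAA. Within the first hour this acts on genes that need no newly made protein, among them feedback inhibitors of the SOCS family and transcription factors such as Egr2, Irf4 and Myc, while the enzymes and chemokines that mark alternatively activated macrophages build up over many hours.

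Expression is given as TPM, a level scaled by gene length and by the size of each library. The listed values summed to 623219 to 626256 TPM in the C57 libraries and to 653586 to 655053 TPM in the SPRET libraries, under basal conditions and after 1 hour. All responses and differences are in log2(TPM + 1), so a difference of 1 is 2-fold. The pseudocount shrinks the responses of low genes, so where 1 strain is low a difference in response can come out too small, too large or with the other sign. Of 24537 genes listed, 12088 reached 1 TPM in at least 2 libraries of the time course and were tested with limma. A gene is called here when its Benjamini-Hochberg adjusted p, over all genes tested, was under 0.05 and its difference was over 2-fold. The 8 libraries held between about 6756000 and 17821000 tags, and 10931 to 11080 genes reached 1 TPM in each. Replicates correlated at a Pearson r of 0.988 to 0.989 across genes in the 4 groups. All 8 macrophage markers were tested. Their summed level, 31601 to 32585 TPM in C57 and 51824 to 54480 TPM in SPRET, was mostly Lyz2, at 26396 to 27354 TPM and 45828 to 48274 TPM, while Fcgr1 was between 22.9 and 28 TPM in C57 and between 0.036 and 0.244 TPM in SPRET. The 4 mast cell and basophil markers summed to 0.201 to 0.481 TPM in C57 and 14.8 to 16.3 TPM in SPRET, nearly all of it Mcpt8, and the other 3 were at or under 1.35 TPM in every library. Of 43 markers of 8 cell types, 19 were expressed enough to be tested, none of them for B cells, and none of the 19 was called in the difference at 1 hour. In bulk RNA, more cells of a type and more RNA in each cell cannot be told apart.

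More genes passed the threshold in SPRET than in C57. After 1 hour of IL-4, 171 genes were called higher and 57 lower in SPRET (1.41% and 0.472% of genes tested), against 85 and 21 in C57 (0.703% and 0.174%). These counts do not test the strains against each other, which the difference in response does. That difference was called for 98 genes (0.811%), of which 68 had the higher response in SPRET (0.563%) and 30 the lower response (0.248%). With a pseudocount of 5 TPM these counts were 39 and 11, and 46 of the 98 calls were kept. The median difference over all genes tested was -0.03. By adjusted p alone, at any size, 280 genes differed (2.32%), 170 of them higher (1.41%) and 110 lower (0.91%).

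Most of the higher differences were genes that were called in SPRET and not in C57. Of the 68, 50 were induced in SPRET only by call, 10 were induced in both strains with the larger rise in SPRET, 3 were called lower in C57 only, and 5 were called in neither strain. Of the 30 lower differences, 14 were repressed in SPRET only by call, 8 were induced in C57 only, 1 (Notch1) was repressed in both, and 7 were called in neither. No gene was called in opposite directions in the strains. Of 85 genes induced in C57, 55 were also called induced in SPRET. Of the same 85, 67 had no called difference, 10 were higher in SPRET and 8 were lower. Of 171 genes induced in SPRET, 111 had no called difference, 60 were higher in SPRET and none was lower. These sets share libraries with the difference, so the counts are given side by side only.

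**Figure D1:**
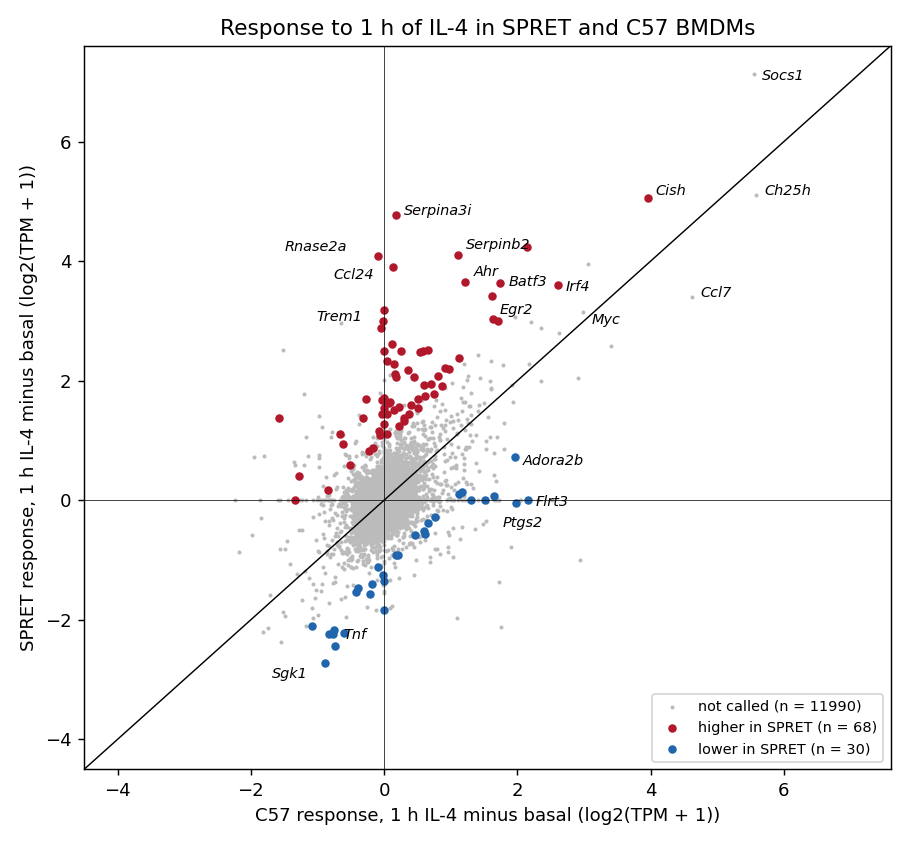
Response to 1 hour of IL-4 in C57 (horizontal axis) and SPRET (vertical axis), both as log2(TPM + 1) of the 1 hour libraries minus the basal libraries, for 12088 genes. Red points are the 68 genes with the higher response in SPRET and blue points the 30 with the lower, and the red points from Serpina3i to Trem1 lie above 2.9 in SPRET and near 0 in C57, while Flrt3 and Ptgs2 lie near 2 in C57 and near 0 in SPRET.

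Serpina3i, a serine protease inhibitor of the Serpina3 cluster, had the largest difference of the genes called. Rnase2a, Ccl24 and Trem1 were also among the 10 named with the largest higher differences, as were 3 short RNA genes that are described separately. It was at 0 and 0.067 TPM in the basal C57 libraries and at 0.252 and 0.102 TPM after 1 hour, and at 1.04 and 0.679 TPM in the basal SPRET libraries and at 50.4 and 48.4 TPM after 1 hour. The treated SPRET libraries stood far above all others, and no groups of the 2 strains overlapped. The response was 4.77 in SPRET and 0.19 in C57, and the difference was 4.58 ± 0.20 (SE, n = 2 libraries in each group, limma adjusted p = 3.23e-07).

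Serpina3i did not stand alone in its cluster on chromosome 12 (mm10). Serpina3f (chr12:104214633-104221129), Serpina3h (chr12:104247896-104254405) and Serpina3i (chr12:104263122-104269365) lie next to each other on the plus strand, with gaps of 26.8 and 8.7 kb between neighbouring called genes. Serpina3f was at or under 0.165 TPM in all C57 and basal SPRET libraries and at 6.12 and 4.62 TPM in the treated SPRET libraries, a difference of 2.50 ± 0.30 (adjusted p = 0.000579). Serpina3h, annotated as a pseudogene, was listed at 0 in the other 6 libraries and was above it in the treated SPRET ones, where it was at 2.46 and 2.12 TPM (difference 1.72, adjusted p = 0.00288). Of the 11 Serpina3 genes in the table, 5 were tested. Serpina3g, whose listed span on the same strand covers that of Serpina3f, had estimated responses of 1.09 in C57 and 1.13 in SPRET, the latter called, and its difference was 0.04 ± 0.39 (adjusted p = 0.989). Serpina3n had no called response in either strain. The members are close copies, so reads could be shared between them and the split among them is uncertain.

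The sequence before these starts can be read only for the C57-derived reference. The stretches that follow are the 250 bases before the start that the table gives for each gene, from the RefSeq promoter table (GRCm38.p6), on the strand of the gene, with matches to TTCNNNNGAA or TTCNNNGAA in capitals. Serpina3i, Rnase2a, Serpina3f and Trem1 are shown because they had large differences and were at or under 1.07 TPM in the C57 libraries, while Cish, shown as 30 bases around its start, rose in both strains. Ccl24 also had a large difference at low C57 levels, but no promoter was listed for it. The genes shown are thus not a complete set of such genes. Rnase2a, on the minus strand, holds neither motif and is all in lower case.
Serpina3i (chr12:104262872-104263121): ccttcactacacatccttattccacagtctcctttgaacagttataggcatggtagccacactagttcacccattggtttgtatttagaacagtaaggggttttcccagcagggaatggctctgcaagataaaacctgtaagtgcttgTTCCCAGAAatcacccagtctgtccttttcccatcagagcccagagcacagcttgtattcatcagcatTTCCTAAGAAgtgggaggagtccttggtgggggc
Rnase2a (chr14:51256113-51256362): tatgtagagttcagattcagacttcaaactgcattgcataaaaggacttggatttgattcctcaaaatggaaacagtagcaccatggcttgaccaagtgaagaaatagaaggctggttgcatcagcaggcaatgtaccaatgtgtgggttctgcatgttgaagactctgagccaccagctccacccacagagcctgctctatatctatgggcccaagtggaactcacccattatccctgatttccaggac
Serpina3f (chr12:104214383-104214632): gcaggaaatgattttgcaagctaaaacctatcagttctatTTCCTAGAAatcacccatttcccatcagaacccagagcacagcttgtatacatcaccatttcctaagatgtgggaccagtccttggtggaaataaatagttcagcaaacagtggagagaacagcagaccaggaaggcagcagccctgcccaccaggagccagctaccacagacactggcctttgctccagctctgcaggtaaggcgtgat
Trem1 (chr17:48232489-48232738): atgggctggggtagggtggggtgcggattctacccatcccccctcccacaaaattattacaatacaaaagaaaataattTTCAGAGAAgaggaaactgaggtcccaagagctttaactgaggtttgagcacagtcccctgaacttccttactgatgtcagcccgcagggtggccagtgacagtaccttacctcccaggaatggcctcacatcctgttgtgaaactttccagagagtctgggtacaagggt
Cish (chr9:107296654-107296683): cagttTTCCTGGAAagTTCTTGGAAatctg
In Serpina3i the matches TTCCCAGAA and TTCCTAAGAA begin 102 and 34 bases before the start. In Serpina3f TTCCTAGAA begins 210 bases before the start, and in Trem1 TTCAGAGAA begins 171 bases before it. These distances depend on the start used. The RefSeq span of Serpina3i begins at 104263045, so TTCCTAAGAA, at 104263088, lies within it. Relative to another listed start of Serpina3f, its match is at -121. Cish has a pair of matches at its start, TTCCTGGAA and TTCTTGGAA. The upstream stretches of Serpina3i and Serpina3f are related, and the longest run of letters that they share has 19 bases. Of 8 Serpina3 genes with a promoter in that table, 3 hold either motif, namely Serpina3f, Serpina3g and Serpina3i.

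These motifs read the same on both strands and can overlap each other. Promoters from 250 bases before to 50 bases after the start were found for 9143 of 12088 genes tested. Of these genes, 6.57% had TTCNNNNGAA and 8.21% had TTCNNNGAA in at least 1 promoter. A gene with several starts thus had more chances of a match. Of the 51 genes with a higher difference and a promoter, 7 held the first motif (13.7%) and 10 the second (19.6%). Of 23 genes with a lower difference, 1 (4.35%) and 2 (8.7%) did. Of 39 genes induced in both strains, 8 (20.5%) and 7 (17.9%) did. The AP-1 type motif TGANTCA was found for 6.3% of all genes with a promoter, for 13.7% of those with a higher difference and for 4.35% of those with a lower one. Among 41 named genes, 30 had a promoter in the table and 8 of these held a TTC motif. For this count and that of the Serpina3 genes, the share of all genes with either motif was not computed, so they have no background. A match is a run of letters and not a bound site, and the SPRET sequence was not analysed here.

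Rnase2a, a ribonuclease of the eosinophil-associated family, came next. It was between 0.322 and 1.07 TPM in the C57 libraries, at 0.183 and 1.49 TPM in the basal SPRET libraries, and at 30.9 and 25.3 TPM in SPRET after 1 hour. Basal levels overlapped between the strains in these libraries, and the treated SPRET libraries were apart from all others. The difference was 4.16 ± 0.50 (adjusted p = 0.000571). Of 11 Rnase2 and Ear genes in the table, 4 were tested and Rnase2a was the called member. These genes are near-copies of each other, so its level is uncertain in the same way.

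Ccl24, an eotaxin that attracts eosinophils and a marker of alternative activation, was at or under 0.348 TPM in all 4 C57 libraries and at 0.294 and 0.433 TPM in the basal SPRET libraries. After 1 hour it was at 21.1 and 17.8 TPM in SPRET, and the difference was 3.77 ± 0.21 (adjusted p = 1.07e-06). Of 14 Ccl genes tested, it was the called member. Trem1, an activating receptor that amplifies inflammatory signals in myeloid cells, was between 0.183 and 0.213 TPM in the C57 libraries. It was at 2.67 and 3.01 TPM in basal SPRET libraries and at 29.3 and 29.8 TPM after 1 hour, a difference of 3.02 ± 0.14 (adjusted p = 3.23e-07). Its neighbour Trem3, 0.8 kb away, had a smaller called difference of 1.24 (adjusted p = 0.0207). Trem2, Treml1, Treml2 and Treml4 had none.

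Serpinb2, the plasminogen activator inhibitor 2, was called in both strains. It was at 1.08 and 0.371 TPM in basal C57 libraries and at 2.42 and 2.85 TPM after 1 hour, against 2.44 and 1.7 TPM and then 55.2 and 47.9 TPM in SPRET. The treated C57 libraries were thus near the basal SPRET level. The difference was 3.00 ± 0.27 (adjusted p = 6.06e-05). Its neighbour Serpinb10, with which it shares annotated exon sequence on the same strand, had a difference of 1.70 (adjusted p = 0.000127), and reads in the shared part cannot be assigned to either gene with certainty.

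**Figure D2:**
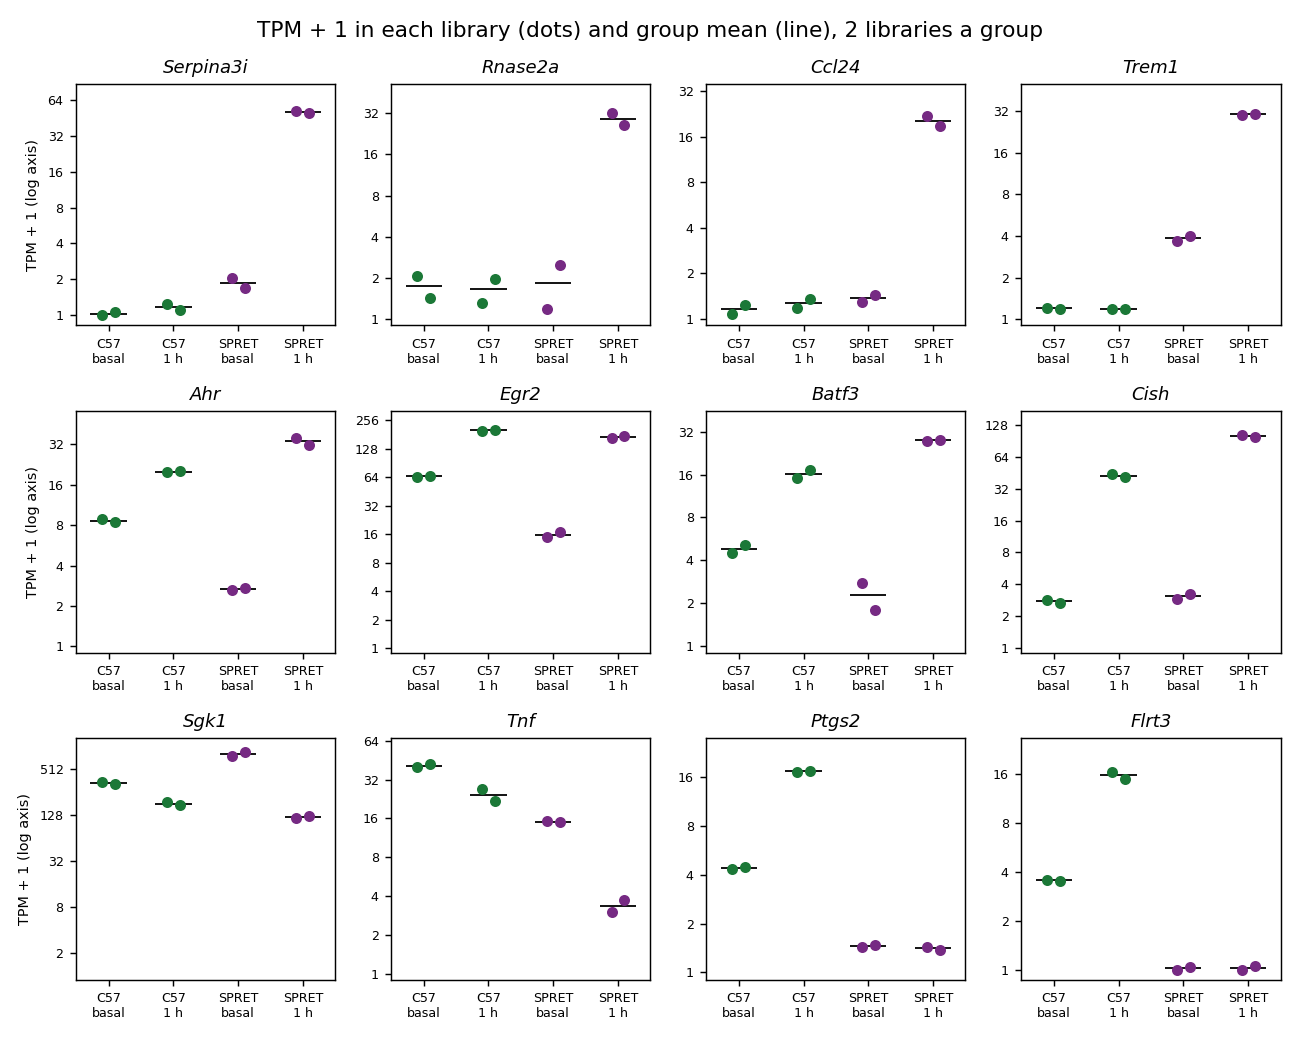
TPM + 1 on a log axis in each basal and 1 hour library of C57 (green) and SPRET (purple) for 12 genes, with the mean of the 2 libraries of a group as a line. In the first 4 panels the treated SPRET libraries are alone at a high level, from Ahr to Cish both strains rise, in Sgk1 and Tnf the treated SPRET libraries are the lowest, and in Ptgs2 and Flrt3 the treated C57 libraries are alone at the top.

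Ahr, the ligand-activated aryl hydrocarbon receptor, changed its order between the strains in the time course. It was at 7.83 and 7.38 TPM in basal C57 libraries and at 1.65 and 1.74 TPM in basal SPRET libraries. After 1 hour it was at 19 and 19.1 TPM in C57 and at 34.7 and 30.9 TPM in SPRET. In these libraries SPRET was the lower strain before IL-4 and the higher one after it, and no groups overlapped. The difference was 2.43 ± 0.13 (adjusted p = 7.96e-07), with a response of 1.22 in C57 and 3.64 in SPRET. Its partner Arnt, its repressor Ahrr and its targets Cyp1b1 and Tiparp had differences between -0.20 and 0.39, none of them called.

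The signal chain itself showed no called difference in response at 1 hour. Of 13 tested genes for the IL-4 receptor, JAK kinases, STAT6 and their adaptors and phosphatases, none was called, none passed by adjusted p alone, and the median difference was 0.02. Il4ra, the receptor chain that binds IL-4, was between 32.1 and 35.4 TPM in the C57 libraries and between 29.1 and 35.9 TPM in the SPRET libraries. The strains thus overlapped in these libraries (difference -0.28 ± 0.10, adjusted p = 0.279). In other basal libraries of the series Il4ra was between 33.2 and 38.8 TPM in C57 and between 76.2 and 80.9 TPM in SPRET. Stat6 was at 102 and 102 TPM in the basal C57 libraries and 124 and 135 TPM in the basal SPRET libraries, and its difference was 0.07 ± 0.08 (adjusted p = 0.807). The only call for this list in either strain was Irs2, an adaptor of the receptor, which rose by 1.32 in SPRET, with a difference of 0.73 (adjusted p = 0.252). These values are RNA levels and do not measure receptor protein or STAT6 phosphorylation.

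SOCS proteins are feedback inhibitors of the JAK and STAT pathway. Of 8 SOCS genes tested, 3 were called higher in C57 and 4 in SPRET, and in the difference 2 were higher and none lower, with a median of 0.24. Cish, a feedback inhibitor of STAT signalling, was at 1.86 and 1.64 TPM in basal C57 libraries and at 1.88 and 2.25 TPM in basal SPRET libraries. After 1 hour it was at 42.9 and 40.6 TPM in C57 and at 103 and 98.6 TPM in SPRET. The basal levels were close and the treated levels far apart. The difference was 1.10 ± 0.11 (adjusted p = 9.1e-05).

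Socs2 was far lower in C57, at 0.133 and 0.141 TPM and then 1.07 and 0.648 TPM, than in SPRET, at 6.62 and 5.33 TPM and then 29.4 and 22.6 TPM. Its difference was 1.25 ± 0.23 (adjusted p = 0.0112), but with a pseudocount of 0.1 TPM it was 0.12 (adjusted p = 0.948), so its call rests on the scale chosen for low values. It was also lost without C57 1 hour replicate 2 (1.09), SPRET basal replicate 2 (1.11) or SPRET 1 hour replicate 1 (1.07), and in the model of 8 libraries. Socs1, the main inhibitor of JAK kinases, had the largest response of the named genes in SPRET, 7.14, against 5.54 in C57. Its basal libraries were uneven, at 1.74 and 4.79 TPM in C57 and 0.207 and 0.763 TPM in SPRET, and its treated libraries overlapped, at 155 and 220.1 TPM in C57 and 196 and 214 TPM in SPRET. Its difference of 1.59 ± 0.44 was not called (adjusted p = 0.105), and it was 2.13 (adjusted p = 0.0104) without C57 basal replicate 1. Socs3 had the opposite sign, -0.60 (adjusted p = 0.0148), under 2-fold.

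Among 28 immediate early genes tested, 3 were called higher and 1 lower in the difference, with a median of -0.10. Egr2, a zinc finger factor that IL-4 induces in macrophages, was at 63.2 and 64.9 TPM in basal C57 libraries and at 197 and 199.9 TPM after 1 hour. In SPRET it was at 13.8 and 15.8 TPM and then at 165 and 171 TPM. The larger rise in SPRET thus began from a lower level and ended below the C57 level, and no groups overlapped. The difference was 1.81 ± 0.09 (adjusted p = 3.23e-07).

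Dusp4, a phosphatase that inactivates MAP kinases, and Atf3, a stress-induced repressor, had the same pattern. Dusp4 was at 77.7 and 81.3 TPM and then 246 and 254 TPM in C57, and at 20.4 and 22.6 TPM and then 181 and 185 TPM in SPRET (difference 1.39 ± 0.10, adjusted p = 9.07e-06). Atf3 was at 218 and 220.0 TPM and then 377 and 388 TPM in C57, and at 38.3 and 37 TPM and then 157 and 167 TPM in SPRET (difference 1.27 ± 0.06, adjusted p = 3.23e-07). For Atf3 even the treated SPRET libraries were below the basal C57 libraries. Myc rose in both strains, by 2.99 in C57 and 3.14 in SPRET, and its difference was 0.15 ± 0.11 (adjusted p = 0.699).

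Fos went the other way. It was at 13.7 and 16 TPM and then 8.19 and 8.35 TPM in C57, and at 8.61 and 11.4 TPM and then 1.35 and 1.27 TPM in SPRET. The SPRET response of -2.24 was called, the C57 response of -0.77 was under 2-fold, and the difference was -1.47 ± 0.22 (adjusted p = 0.00256). With a pseudocount of 5 TPM the difference was -0.67. Other AP-1 family members split as well. Batf3, which pairs with Jun proteins, rose in both strains and more in SPRET, from 3.51 and 4.12 TPM to 14 and 16.3 TPM in C57 and from 1.78 and 0.787 TPM to 26.6 and 26.9 TPM in SPRET (difference 1.89 ± 0.26, adjusted p = 0.00143). Jdp2, a repressor of AP-1, had a difference of 1.16 (adjusted p = 0.0299), and Fosl2 one of -0.94 (adjusted p = 0.000391), under 2-fold. Jun, Junb and Jund had differences between -0.12 and 0.25, none of them called. Batf3 and Atf3 lie 61.4 kb apart on chromosome 1, and Fos and Jdp2 122.7 kb apart on chromosome 12. The first pair moved the same way and the second did not.

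Of 29 tested genes of alternative activation, 3 were called higher (Ccl24, Batf3 and Irf4) and 1 lower (Msx3), and the median difference was 0.33. By call, 8 of them rose in C57 and 9 in SPRET. Irf4, a transcription factor of alternatively activated macrophages, was at 0.949 and 0.643 TPM and then 9.87 and 9.93 TPM in C57, and at 0.636 and 0.82 TPM and then 19.8 and 20.2 TPM in SPRET. Its difference of 1.00 ± 0.16 (adjusted p = 0.00462) lay on the 2-fold line. Its call was lost, with values from 0.88 to 0.997, without C57 basal replicate 1, C57 1 hour replicate 1, SPRET basal replicate 1 or SPRET 1 hour replicate 2, and on rescaling (0.99) or quantile normalization (0.91).

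Ch25h and Arg1 of the same list had no called difference. Ch25h, which makes 25-hydroxycholesterol, rose by 5.58 in C57 and 5.10 in SPRET (difference -0.48 ± 0.21, adjusted p = 0.409). Arg1, the arginase that marks alternative activation, was at 77 and 90.8 TPM and then 233 and 257 TPM in C57. In SPRET it was at 2.66 and 4.49 TPM and then 9.29 and 6.74 TPM, so the strains differed far more in level than in response (difference -0.54 ± 0.26, adjusted p = 0.469). Msx3, a homeobox factor, was at 1.25 and 1.72 TPM and then 6.14 and 7.49 TPM in C57 and at or under 0.106 TPM in all 4 SPRET libraries (difference -1.58 ± 0.20, adjusted p = 0.000825). The Msx3 call was lost with a pseudocount of 0.1 TPM (-1.61, adjusted p = 0.199) and of 5 TPM (-0.85).

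**Figure D3:**
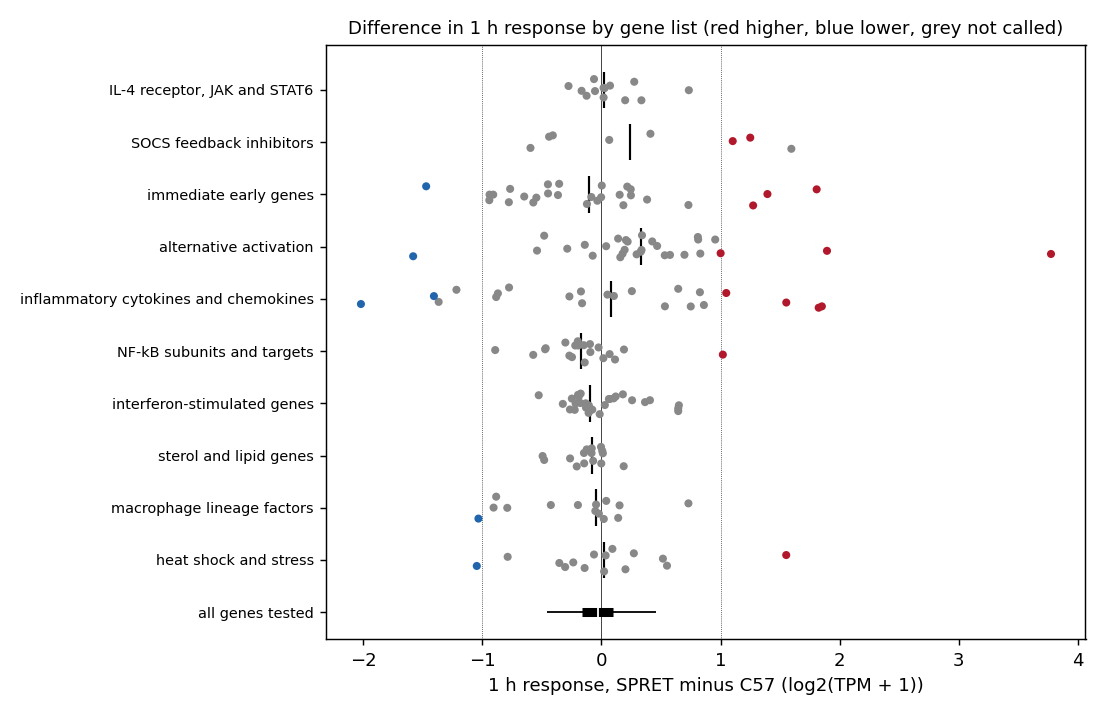
Difference in 1 hour response, SPRET minus C57, in log2(TPM + 1), for each tested member of 10 gene lists, with the list median as a vertical line and dotted lines at 2-fold. The bottom row gives all 12088 genes, with the 25th to 75th percentile from -0.16 to 0.10 (thick) and the 5th to 95th percentile from -0.46 to 0.46 (thin). Called members lie on both sides in 4 lists, and no member of the receptor, interferon and sterol lists was called.

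Of 22 cytokines, chemokines and enzymes tested, 4 were higher and 2 lower, with a median of 0.08. The higher ones were the neutrophil chemoattractants Cxcl3, Cxcl1 and Cxcl2 and the macrophage growth factor Csf1. Cxcl3 was at 33.4 and 29.6 TPM and then 59.4 and 42.8 TPM in C57, and at 50.8 and 63.4 TPM and then 315 and 343 TPM in SPRET (difference 1.85 ± 0.25, adjusted p = 0.00117). Cxcl1 was at 6.43 and 5.25 TPM and then 6.9 and 8.65 TPM in C57, and at 11.9 and 12.5 TPM and then 64.3 and 53.7 TPM in SPRET (difference 1.82 ± 0.20, adjusted p = 0.000359). For both, SPRET was called higher after IL-4 and C57 was not. Cxcl2, between which and Cxcl1 lie 10.8 kb on chromosome 5, had a difference of 1.05 (adjusted p = 0.00147). Of 7 Cxcl genes tested, these 3 were called.

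Csf1 was between 10.3 and 12.4 TPM in all 4 C57 libraries, while in SPRET it was at 5.59 and 6.5 TPM and then at 21.6 and 20.0 TPM (difference 1.55 ± 0.12, adjusted p = 1.93e-05). The lower ones were Tnf and Ptgs2. Tnf, a central inflammatory cytokine, was at 38.8 and 41.1 TPM and then 26 and 20.7 TPM in C57, and at 14.2 and 13.9 TPM and then 2.04 and 2.71 TPM in SPRET. Its response of -2.17 was called in SPRET, that of -0.76 in C57 was under 2-fold, and the difference was -1.41 ± 0.18 (adjusted p = 0.000997), or -0.70 with a pseudocount of 5 TPM.

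Ptgs2, the inducible cyclooxygenase, rose in C57 from 3.35 and 3.47 TPM to 16.1 and 16.5 TPM. In SPRET it was between 0.379 and 0.479 TPM in all 4 libraries (difference -2.02 ± 0.15, adjusted p = 1.38e-05). Ccl7, a monocyte chemoattractant, rose in both strains, from 8.57 and 14.3 TPM to 288 and 306 TPM in C57 and from 0 and 0.817 TPM to 14.2 and 12.4 TPM in SPRET. Its difference of -1.22 ± 0.41 was not called (adjusted p = 0.22), and the sign turned with the pseudocount, from 0.73 at 0.1 TPM to -2.46 at 5 TPM, so no direction is given for it.

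Regulators of NF-kB, a factor that drives inflammatory genes, showed 1 call among 20 tested. Tnfaip3, the inhibitor also known as A20, was at 56.5 and 56.9 TPM and then 68.7 and 71.7 TPM in C57 and at 40.5 and 42.7 TPM and then 109.5 and 102 TPM in SPRET. Its difference of 1.02 ± 0.08 (adjusted p = 2.34e-05) was just past 2-fold, and it was 0.99, 0.98 and 0.97 without C57 1 hour replicate 1, SPRET basal replicate 1 and SPRET 1 hour replicate 1. The median of this list was -0.17, and Bcl3 and Nfkbia had lower responses in SPRET under 2-fold, by -0.89 and -0.57 (adjusted p = 0.00209 and 0.00371). None of 30 interferon-stimulated genes and none of 15 sterol and lipid genes was called, with medians of -0.09 and -0.08.

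Of 14 lineage factors, 1 was called lower. It was Ets2, at 39.7 and 36.3 TPM and then 63.1 and 58 TPM in C57 and at 36.8 and 51.8 TPM and then 31.1 and 36 TPM in SPRET (difference -1.03 ± 0.19, adjusted p = 0.00962). Without C57 basal replicate 2, C57 1 hour replicate 1, SPRET basal replicate 2 or SPRET 1 hour replicate 1, its difference was between -0.97 and -0.79 and not called. On rescaling it was -0.9986, and in the model of the 8 libraries its adjusted p was 0.0909. Of 15 stress genes, the growth arrest genes Gadd45b and Gadd45a were called on opposite sides. Gadd45b was at 48.3 and 50.6 TPM and then 38.3 and 26.6 TPM in C57, and at 12.8 and 14.6 TPM and then 28.8 and 25.4 TPM in SPRET (difference 1.55 ± 0.19, adjusted p = 0.000725). Gadd45a had a difference of -1.05 ± 0.21 (adjusted p = 0.0207), whose call was lost in 8 of 17 alternatives, with values from -1.07 to -0.81. These included leaving out either C57 1 hour library, C57 basal replicate 1, SPRET basal replicate 1 or SPRET 1 hour replicate 2.

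Among the largest lower differences, several genes were well expressed in both strains. Flrt3, Ptgs2 and Msx3, by contrast, were at or under 0.479 TPM in every SPRET library under basal conditions and after 1 hour. Sgk1, a serum- and glucocorticoid-regulated kinase, was at 341 and 317 TPM and then 184 and 171 TPM in C57, and at 749 and 831 TPM and then 115 and 123 TPM in SPRET. SPRET went from the higher to the lower strain within the hour and no groups overlapped, with a difference of -1.84 ± 0.09 (adjusted p = 3.23e-07). Rgs2, which limits G protein signalling, went from 28.3 and 28.3 TPM to 14.8 and 16.4 TPM in C57 and from 73.6 and 73.8 TPM to 16.1 and 13.7 TPM in SPRET (difference -1.41 ± 0.11, adjusted p = 2.34e-05). The treated libraries of the strains overlapped and the basal libraries did not.

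Zfp36l2, which promotes mRNA decay, went from 42 and 55.7 TPM to 28.9 and 34.2 TPM in C57 and from 68.5 and 63 TPM to 13.1 and 13.5 TPM in SPRET (difference -1.62 ± 0.20, adjusted p = 0.000626). Sh3bp2, a signalling adaptor, went from 66.8 and 71.4 TPM to 60.7 and 58.6 TPM in C57 and from 86.6 and 90.2 TPM to 30.6 and 27.5 TPM in SPRET (difference -1.37 ± 0.09, adjusted p = 4.11e-06). For both genes the treated SPRET libraries were the lowest. Flrt3, a cell adhesion protein, rose in C57 from 2.59 and 2.52 TPM to 15.6 and 14 TPM and was at or under 0.061 TPM in all 4 SPRET libraries (difference -2.14 ± 0.17, adjusted p = 2.45e-05). Its relative Flrt2 was on the other side, with a difference of 1.14 (adjusted p = 0.00032).

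F630028O10Rik (chrX:96239926-96243642, plus strand) is a transcript whose exons overlap the microRNA gene Mir223. It was at 3.98 and 4.04 TPM and then 2.19 and 1.81 TPM in C57, and at 19.9 and 16.8 TPM and then 3.37 and 1.91 TPM in SPRET (difference -1.70 ± 0.25, adjusted p = 0.00235). Mir223 itself, listed in the same table, was under 8 TPM in every library and at 0 in 1 of the treated libraries of each strain, and its difference of -0.94 was not called (adjusted p = 0.742). Poly(A) RNA does not measure the mature microRNA. The mature sequences of both arms of the locus are shown for reference, from RefSeq, with the seed (bases 2 to 8) in capitals.
mmu-miR-223-5p (chrX:96242842-96242864, plus strand): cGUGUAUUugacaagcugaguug
mmu-miR-223-3p (chrX:96242884-96242905, plus strand): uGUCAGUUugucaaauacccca

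Not all called genes were messenger RNAs. Of the 68 higher and 30 lower genes, 60 and 24 were protein-coding, and 9 were microRNA or small nucleolar RNA genes between 47 and 120 bases long. The shares of these kinds among all genes tested were not computed, so the counts have no background. Each of these 9 had libraries at 0, and their values come from fragments of poly(A) RNA over a very short length. Snord68 was listed at 0 in every C57 and basal SPRET library of the time course, and at 6.3 and 10.3 TPM in the treated SPRET libraries. In 3 other basal SPRET libraries of the series, however, it was at 4.42, 4.35 and 2.795 TPM. Mir6954 was also at 0 in the time course but for 2.51 and 8.17 TPM in treated SPRET libraries. Yet it was between 74.6 and 84.1 TPM in 4 Egr2 fl/fl libraries of the same series. Snord37 was at 0 in both basal SPRET libraries and at 8.55 and 4.64 TPM after 1 hour, against 1.77 to 2.8 TPM in C57. Its call (difference 2.92 ± 0.66, adjusted p = 0.0411) was lost when any 1 of the 8 libraries was left out, with adjusted p from 0.0505 to 0.166. Snord68 overlaps annotated exons of Rpl13 and Mir6954 those of Mroh1, on the same strand, so reads of the host genes could be counted for them.

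Basal levels of the called genes were read from libraries that the difference does not use. In the table of 5 strains, with 3 basal libraries each of C57 and SPRET, 66 of the 68 higher genes had a value. Of these, 28 were lower in SPRET by over 1.5-fold (42.4%), 17 were within 1.5-fold (25.8%) and 21 were higher (31.8%). Of all genes tested, 16.9% were lower, 64% within and 19.1% higher, and 18.1% were called there, 8.58% higher and 9.52% lower. Egr2, Dusp4 and Atf3 were among the lower ones, with basal differences of -2.25, -2.41 and -2.82, Ccl24 was within the margin at -0.17, and Trem1 was higher by 2.80. For some genes the basal difference was not the same in both sets of libraries. It was -1.67 in the time course and -0.40 in the 5 strains for Ahr, 1.35 and 0.17 for Rgs2, -1.44 and 0.24 for Tnf, -0.53 and 1.03 for Fos, and 0.15 and -1.14 for Cish. It was also -0.002 and -1.21 for Rnase2a, 0.20 and 1.29 for Ets2, and -0.85 and -3.00 for Cdkn1a. For Il4ra, whose response at 1 hour had no called difference, it was 0.07 and 1.14, the latter called. The basal order or overlap of the strains given for these genes holds for the time-course libraries. Of 25 lower genes with a value, 6 were lower in SPRET, 9 within and 10 higher. Both sets thus held genes of every basal class.

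**Figure D4:**
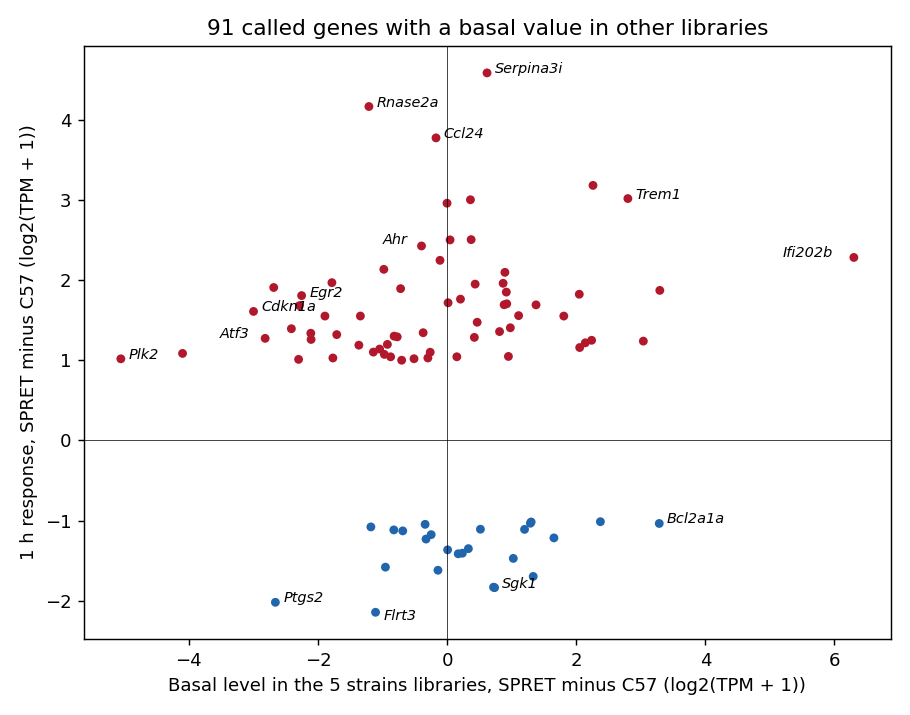
Difference in 1 hour response (vertical axis) against the basal difference in the separate libraries of the 5 strains (horizontal axis), both SPRET minus C57 in log2(TPM + 1), for 91 called genes. Higher responses (red) are found from Plk2, at a basal difference of -5.05, to Ifi202b, at 6.30, and lower responses (blue) from Ptgs2, at -2.66, to Bcl2a1a, at 3.29.

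In the time course itself, where the levels share libraries with the difference, 47 of the 68 higher genes ended above C57 by over 1.5-fold after 1 hour (69.1%), 12 were within 1.5-fold and 9 were below, against 20%, 62.2% and 17.8% of all genes tested. Of the 30 lower genes, 18 ended below C57 and 3 above. The level after 1 hour was called different between the strains for 19.5% of all genes tested, 10.2% higher and 9.36% lower in SPRET, and the basal level for 18.8%, 9.92% higher and 8.88% lower.

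A second set of libraries gave the response at 1 hour in cells with intact Egr2 from Egr2 fl/fl mice, which carry floxed Egr2 without Cre and served as controls for a knockout. There, 73 genes were called higher and 21 lower (0.604% and 0.174%). Cish rose by 3.61, Socs1 by 5.81, Ahr by 1.69 and Egr2 by 1.76, while the estimates for Serpina3i, Ccl24 and Csf1 were 0.07, 0.26 and 0.11 (adjusted p = 0.97, 0.82 and 0.78). Flrt3 rose by 1.68 there and Msx3 by 1.55, and Tnf fell by 1.85. Of the 68 higher genes, 62 were tested in these libraries, and 9 were called higher and none lower, with a median of 0.41. Of the 30 lower genes, 3 were called higher and 3 lower, with a median of -0.08. The median over all genes with a value was 0.03.

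The early differences were followed to later times. Within the time course the contrasts at 6 and 24 hours share the basal libraries with that at 1 hour, so the values are given side by side. Of the 68 higher genes, 42 were called higher at 6 hours and 22 at 24 hours, with median differences of 1.29 and 0.59, and none and 6 were called lower. At 6 hours 2.4% of genes tested were called, 1.36% higher and 1.04% lower, and at 24 hours 6.22%, 3.09% higher and 3.14% lower. Of the 30 lower genes, 11 were called lower at 6 hours and 14 at 24 hours.

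Single genes had different courses. Serpina3i in SPRET went from 50.4 and 48.4 TPM at 1 hour to 19.2 and 15.6 TPM at 6 hours and 6.74 and 6.52 TPM at 24 hours, and was at or under 0.252 TPM in every C57 library. Rnase2a went on to 194 and 169.8 TPM at 6 hours and 272 and 206 TPM at 24 hours in SPRET, against 3.3 and 4.24 TPM at 24 hours in C57. Ccl24 in SPRET was highest at 6 hours, at 66.5 and 51.2 TPM, and C57 reached 4.05 and 4.54 TPM at 24 hours. In the separate 24 hour libraries of the 5 strains, both genes were higher in C57 than that. Ccl24 was there at 24.0, 30.7 and 32.1 TPM in C57 and at 90.0, 100.5 and 103.6 TPM in SPRET. Rnase2a was at 15.2, 15.4 and 13.6 TPM in C57 and at 181.6, 177.1 and 198.2 TPM in SPRET.

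Ahr in SPRET was at 7.18 and 7.5 TPM at 24 hours, below the 15.8 and 15.9 TPM of C57. Sgk1, at 115 and 123 TPM in SPRET at 1 hour, was at 523 and 522 TPM at 6 hours and its difference was then -0.20, not called, while at 24 hours it was -1.15 and called. Tnf in SPRET was at 13.9 and 16.1 TPM at 6 hours, near its basal 14.2 and 13.9 TPM. Ch25h, with no called difference at 1 hour, had differences of -2.06 at 6 hours and -3.04 at 24 hours, both called.

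**Figure D5:**
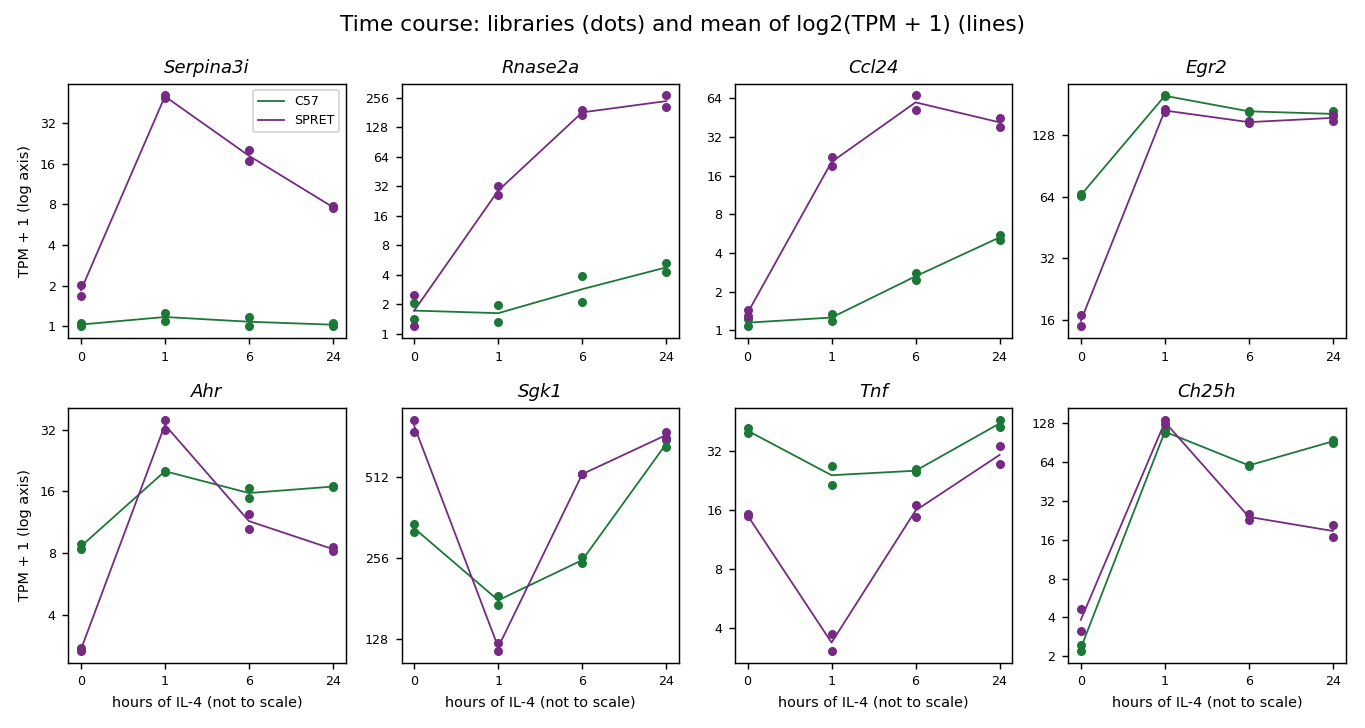
TPM + 1 on a log axis at 0, 1, 6 and 24 hours of IL-4 in C57 (green) and SPRET (purple) for 8 genes, with a dot for each library and a line through the group means of log2(TPM + 1). Serpina3i, Ahr, Sgk1 and Tnf have their extreme in SPRET at 1 hour, while Rnase2a and Ccl24 in SPRET are higher at 6 hours than at 1 hour.

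The separate libraries of the 5 strains gave an independent look at 24 hours. There, the difference in response between SPRET and C57 was called higher for 218 genes and lower for 193 (1.83% and 1.62%, 3.45% in all), and its median over the genes with a value was 0.16. Of 66 higher genes with a value, 23 were called higher and 3 lower, with a median of 0.50. Of 25 lower genes, 9 were called lower and none higher, with a median of -0.63. Serpina3i (3.43), Rnase2a (4.78), Ccl24 (1.90), Serpinb2 (3.17), Cxcl3 (5.01) and Egr2 (2.12) were called higher in these libraries. Trem1 (0.22), Ahr (0.50) and Sgk1 (0.02) were not called there.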

How the data were processed

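Poly(A) RNA of BMDMs was made into strand-marked libraries and sequenced as single reads of 75 bases. Per the study's methods, the authors aligned reads with STAR 2.5.3 to strain genomes built with MMARGE 1.0 from mm10, moved the alignments to mm10 coordinates and computed TPM per gene with HOMER 4.11.1. Whether the counting used strand is not given in the sources used here. The deposited TPM tables hold no counts, and the tag total of each library comes from the column headers. The tables also carry the authors' own comparison columns (fold changes on a log2 scale with raw and adjusted p-values), which were not used.

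From the deposited TPM, log2(TPM + 1) was fitted with limma 3.58.1 in R 4.3.3 over the 16 time-course libraries, as a mean for each strain and time with empirical Bayes moderation and a mean-variance trend. The test took genes that reached 1 TPM in 2 or more libraries. The other tables (16 libraries of Egr2 fl/fl mice with and without LyzM-Cre, and 29 of 5 strains) were normalized separately and were fitted on their own. A gene was called at an adjusted p (Benjamini-Hochberg, all genes tested) under 0.05 and over 2-fold. The procedure was tested on simulated data. Figures and sequence searches used Python 3.11.15 with pandas 2.3.3, numpy 2.4.6 and matplotlib 3.10.9.

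The genes named were the 10 with the largest higher and the 10 with the largest lower difference among called genes with a group mean of at least 5 TPM, the called members of 10 gene lists (204 genes in all, at most 4 named for each list), and 10 always given (Socs1, Cish, Egr2, Ch25h, Arg1, Stat6, Il4ra, Ccl7, Myc and Irf4). The members and lists were chosen with earlier results of these data known. Other genes, relatives and neighbours that the text gives (among them Serpina3g, Serpina3h, Serpina3n, Serpinb10, the Trem and Cxcl relatives, Notch1, the Ahr partners, Jdp2, Fosl2, Flrt2, Socs3, Irs2, Bcl3, Nfkbia, Mir223 and Plk2) were chosen after their values were seen. Human macrophage and F1 hybrid tables were not analysed here.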

Additional observations from a re-analysis of the deposited data

Results flagged for a closer look

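The difference between SPRET and C57 in the response to 1 hour of IL-4 was itself tested with limma, and 68 genes had the higher and 30 the lower response in SPRET (log2(TPM + 1) scale). Each named gene that passed was singled out because the strains differed in this test. Among secreted and surface proteins the differences were 4.58 for Serpina3i, 4.16 for Rnase2a, 3.77 for Ccl24, 3.02 for Trem1, 3.00 for Serpinb2 and 2.50 for Serpina3f. The chemokines Cxcl3 and Cxcl1 had differences of 1.85 and 1.82 and the growth factor Csf1 one of 1.55. Among transcription factors they were 2.43 for Ahr, 1.89 for Batf3, 1.81 for Egr2, 1.27 for Atf3, 1.00 for Irf4, -1.03 for Ets2, -1.47 for Fos and -1.58 for Msx3.

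Among inhibitors and phosphatases of signalling the differences were 1.39 for Dusp4, 1.25 for Socs2, 1.10 for Cish, 1.02 for Tnfaip3 and -1.41 for Rgs2. The stress genes Gadd45b and Gadd45a had differences of 1.55 and -1.05. Others with the lower response in SPRET were Flrt3 at -2.14, Ptgs2 at -2.02, Sgk1 at -1.84, F630028O10Rik at -1.70, Zfp36l2 at -1.62, Tnf at -1.41 and Sh3bp2 at -1.37. The short RNA genes Snord68, Snord37 and Mir6954 had differences of 3.18, 2.92 and 2.50, and all 3 had libraries at 0. Groups of 2 libraries are too small to look for a library that stands apart.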

How the results depend on the processing

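The counts of genes with a higher or lower response in SPRET, 68 and 30, moved by over 1.5-fold with a pseudocount of 5 TPM, which left 39 and 11, and 46 of the 98 calls kept theirs. At that pseudocount the counts were 48 and 9 for the C57 response, 108 and 29 for the SPRET response, 1248 for the basal and 1295 for the 1 hour level, 151 and 382 for the differences at 6 and 24 hours, 44 in Egr2 fl/fl cells, and 1073 and 191 for the basal level and the 24 hour difference in the 5 strains. At 0.1 TPM, 92 genes were lower in SPRET after IL-4 and 721 differed at 24 hours in the 5 strains. Between 78 and 96 of the 98 calls were kept under the other settings that used all replicates, and 76 to 84 with 1 library left out. Without 1 library in turn, 56 to 70 genes were higher and 22 to 32 lower in the difference, 81 to 94 and 19 to 31 in C57, and 162 to 186 and 52 to 70 in SPRET.

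Residuals of the basal and 1 hour libraries of 1 replicate number correlated across genes at -0.14 in C57 and 0.01 in SPRET. Over all 6 pairs of times the correlation was between -0.14 and 0.27 in C57 and between -0.03 and 0.11 in SPRET. So few values cannot settle whether libraries of 1 number belong together, and the main model did not pair them. With the replicate block, 67 genes were higher and 27 lower in the difference, 85 and 22 in C57 and 172 and 56 in SPRET, and Socs1 became called (adjusted p = 0.00512). Over all alternatives, named genes kept their status, called or not called, in 643 comparisons. They lost a call in 48, gained one in 3 and changed direction while called in none. Further losses were Mir6954 with a pseudocount of 5 TPM (0.99) and in the model of 8 libraries (adjusted p = 0.106). The causes were not tested. The limits are 2 libraries for each group, no counts, and a log scale that compresses low genes.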

Other observations

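Surface receptors and signalling regulators outside the gene lists were also among the called genes, and those given here were chosen after their values were seen. Plekhf1, an endosomal adaptor, rose in both strains, from 1.42 and 2.43 TPM to 11.4 and 12.1 TPM in C57 and from 2.18 and 3.04 TPM to 64.7 and 69 TPM in SPRET (difference 2.10 ± 0.24, SE, n = 2 libraries in each group, limma adjusted p = 0.000388). P2ry1, a receptor for ADP, did so too, from 3.94 and 3.7 TPM to 15 and 14.4 TPM in C57 and from 3.79 and 3.94 TPM to 38.9 and 37.2 TPM in SPRET (difference 1.30 ± 0.11, adjusted p = 3.82e-05). Both genes had overlapping or neighbouring basal levels and separate treated levels. Slamf1, a receptor of immune cell contacts, and Aqp9, a channel for water and glycerol, were called in SPRET and not in C57, with differences of 1.95 and 1.96 (adjusted p = 0.00176 and 7.24e-05). Cdkn1a, the cell cycle inhibitor p21, was at 67.6 and 82.2 TPM and then 95.5 and 109 TPM in C57 and at 37.8 and 44.6 TPM and then 181 and 168 TPM in SPRET, so the order of the strains turned (difference 1.61 ± 0.15, adjusted p = 9.1e-05).

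Among the lower differences, Id2, an inhibitor of helix-loop-helix factors, was at 165 and 179.7 TPM and then 128 and 134 TPM in C57 and at 47.3 and 49.9 TPM and then 16.5 and 17.3 TPM in SPRET (difference -1.08 ± 0.10, adjusted p = 9.45e-05). Adora2b, a receptor for adenosine, rose in C57 from 2.7 and 2.37 TPM to 12.9 and 12.6 TPM and had an estimate under 2-fold, 0.73, in SPRET (difference -1.23 ± 0.16, adjusted p = 0.00088). Notch1, a receptor of cell fate, was the called gene that fell in both strains and further in SPRET, from 15.4 and 17 TPM to 6.99 and 7.17 TPM in C57 and from 22.9 and 27 TPM to 5.74 and 4.36 TPM in SPRET (difference -1.02 ± 0.17, adjusted p = 0.00556). Of the 98 called genes, 22 lay within 250 kb of another called gene, in 12 pairs, and 9 of these pairs moved the same way. The same share was not computed over all genes tested, so these counts do not show clustering. Some pairs are near-copies, such as the Serpina3 genes, or share exon sequence, as Serpinb2 and Serpinb10 do.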
